A study of Mus musculus with 44 samples.

Results

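The wild-type group of this single-embryo RNA-seq series comprised 14 of 44 two-cell embryos, namely the columns of the expression table named for the cross of control females with WT males. These embryos are Dppa2/4+/+ and were labelled a to n. They came from natural matings of C57Bl/6 mice, with 10 embryos (a to j) from mating 1 and 4 embryos (k to n) from mating 2. The oocytes of their mothers carried functional *Dppa2* and *Dppa4*. The other 30 embryos came from maternal knockout females, in which both genes are deleted in the growing oocytes. Each embryo was stripped of its zona pellucida and sequenced as its own library, by capture of polyadenylated RNA and the Smart-seq2 method. Embryos of a litter share a mother and a collection, so mother, collection and any batch linked to them cannot be told apart between the 2 matings.

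The mouse embryo is transcriptionally silent for most of the time between the growth of the oocyte and the two-cell stage. A two-cell embryo therefore carries RNA that the mother stored in the egg, much of which is being destroyed, together with the first transcripts of its own genome. Zygotic genome activation (ZGA) is the name for this start of transcription, and its major wave falls in the two-cell stage. The data were used to ask which transcripts dominate such an embryo, which gene classes every embryo contained, and which genes differed between embryos of 1 genotype.

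Mapped reads per embryo ranged from 637704 to 3163026 with a median of 1770009.5 (the sources do not say whether a read or a read pair was counted as 1), and 71.2 to 84.8% of them fell in 1 of the 35269 listed genes. Levels are given in RPM, the reads of a gene scaled to a common total of mapped reads, which is a share of a library and not a number of molecules. A level of 20 RPM rested on 12.8 reads in the shallowest embryo and on 63.3 in the deepest. Intervals and limits given below cover counting error only, because the libraries had no molecular identifiers and amplified copies of a molecule are counted again. Between 9169 and 14199 genes had at least 1 read. After each embryo had been randomly thinned to 637704 mapped reads, the range was 8548 to 12198.

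Marker genes fitted the labelled stage. All 12 two-cell markers were read, with a summed level of 296 to 991 RPM, led by *Sp110* (a nuclear body protein) at a mean of 316 RPM. Of 10 oocyte and egg markers, 7 had a mean of at least 5 RPM, led by *Bmp15* at 611 RPM. *Cdx2*, the trophectoderm regulator, had no read in any embryo, whereas *Gata4* stood at 56.1 RPM on average. Blood markers summed to at most 4.12 RPM, and 7 of 8 sperm markers had no read. In the longer sperm list of 12 genes, *Odf2* and *Ldhc* were read in every embryo before thinning, with means of 28.1 and 20.7 RPM. Among 13 cumulus and granulosa markers, *Amh*, *Inha*, *Inhba*, *Fshr* and *Foxl2* had no read and *Amhr2* led with a mean of 33.4 RPM. Oviduct markers summed to 66.1 to 421 RPM in 13 embryos and to 2141 RPM in embryo k. *Epcam*, an epithelial adhesion protein, made up most of the sum in embryo g (63.4 of 66.1 RPM), stood at 58.1 to 132 RPM in all 14 embryos and did not pass the test between litters (0.03 on the log2 scale, adjusted p = 0.98, limma). *Dppa2* and *Dppa4*, which are deleted in the growing oocytes of the mothers of the other groups, were read in every embryo, at 204 to 678 RPM and 80.2 to 356 RPM.

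Embryos j and k stood apart before any gene was considered. Across 5390 genes with a mean of at least 20 RPM, the 12 other embryos correlated with each other at a Pearson r of 0.58 to 0.88 (median 0.77, over genes, on log2(RPM + 1)). The mean correlation with the other embryos was 0.45 for embryo k and 0.64 for embryo j. For the rest it was 0.68 (embryo e) to 0.77 (embryo c), so embryo j lay only slightly below embryo e on this measure. With equal mapped reads, these 2 embryos had the fewest genes, and they also had the lowest share of reads in genes (71.2 and 73.0%). With 400143 reads in nuclear genes for each embryo, j and k had 8627 and 8617 nuclear genes, and the other 12 had 10427 to 12019. Counts of detected, variable and litter genes are therefore also given without embryo k, and without both embryos.

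Transcripts of the mitochondrial genome dominated the libraries. The 13 measured genes of this genome, all of which encode respiratory chain or ATP synthase subunits, took a median of 12.1% of mapped reads. Their share was lowest in embryo f (7.64%, 95% Wilson interval 7.58 to 7.69%) and highest in embryo e (20.2%, interval 20.1 to 20.2%). *mt-Co1*, a subunit of cytochrome c oxidase, stood at 35045 ± 11854 RPM (SD, n = 14) and lay between 21825 RPM in embryo f and 56985 RPM in embryo e. *mt-Cytb*, the cytochrome b of complex III, stood at 32743 ± 13982 RPM (SD, n = 14). *mt-Nd1*, *mt-Nd5*, *mt-Nd2* and *mt-Nd4*, all subunits of complex I, followed with means of 27215, 10712, 9298 and 7992 RPM. The lowest value of any of these 6 genes in any embryo was that of *mt-Nd2* in embryo k (2809.6 RPM).

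The other mitochondrial genes were far lower, and several of their values are uncertain. *mt-Co3* had a mean of 154 RPM, *mt-Co2* of 118 RPM and *mt-Atp6* of 192 RPM. In the GENCODE transcripts, 99.9% of the 50-base windows of *mt-Co3* and 100% of those of *mt-Co2* also stand in a transcript of another gene. The same holds for 62.2% of those of *mt-Nd4*, 51.1% of *mt-Co1* and 7.61% of *mt-Nd5*, and for none of *mt-Cytb*, *mt-Nd1*, *mt-Nd6* and *mt-Atp8*. Reads that fit several places can fail the mapping quality of 20 required of them. The measured order of the mitochondrial genes therefore does not give the order of their transcripts.

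Nuclear genes followed at much lower levels. *Wtap* encodes a subunit of the enzyme complex that methylates adenosines in mRNA, lies at chr17:12966796-12994169 on the reverse strand (GRCm38), and was the leading nuclear gene. Its level was 3402 ± 1243 RPM (SD, n = 14), with 1952 RPM in the lowest embryo, a median of 3194 RPM and 6707 RPM in the highest. *Spin1* encodes spindlin, an abundant maternal protein that binds methylated histone H3, and lies at chr13:51100880-51152546 on the forward strand. It stood at 3104 ± 1179 RPM (SD, n = 14). Of the 14 values of *Spin1*, 13 lay between 1821 and 5167 RPM and that of embryo j was 579 RPM. *Mdm4*, which restrains p53, had a mean of 2876 RPM.

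*Omt2b* and *Omt2a*, neighbouring oocyte genes on chromosome 9, had means of 2672 and 2226 RPM, and *Oog3*, an oogenesin of the Prame family, of 2025 RPM. *Omt2a* and *Omt2b* share 37.0% and 35.2% of their 50-base windows, so reads from these stretches cannot be assigned to 1 of them. *Gpbp1*, a promoter-binding factor, followed at 2509 RPM, *Rif1*, which times replication, at 2034 RPM, and *Ccdc6* at 1981 RPM. *Gm42418* and *AY036118*, annotated as long non-coding RNA genes on opposite strands of chromosome 17, had means of 2339 and 1977 RPM. The exons of these 2 genes overlap by 923 bp and the quantification ignored strand, so they count largely the same reads. They also overlap *CT010467.1*, by 1639 and 923 bp of exon. Which RNA these reads come from was not tested. Further members of the leading nuclear group were *Bmi1* (a Polycomb subunit), *Eif5* (an initiation factor), *Rock1* (a protein kinase of the cytoskeleton), *Zbed3* (a subcortical maternal complex protein), *Esco1* (a cohesin acetyltransferase) and *Khdc1b*, with means from 1478 to 1526 RPM.

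**Figure D1:**
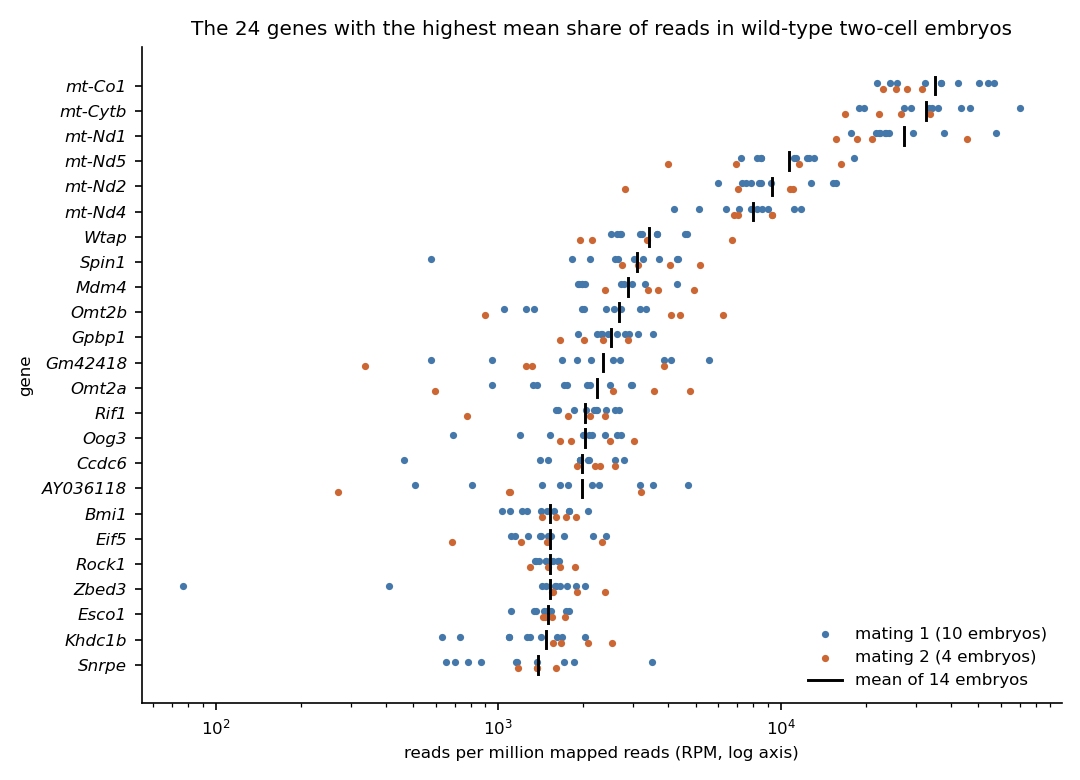
Level of the 24 genes with the highest mean share of reads, in RPM on a log axis, with 1 point per embryo (blue, mating 1; orange, mating 2) and a bar at the mean of 14 embryos. The 6 leading genes are mitochondrial, and embryo j lies far below the rest for *Zbed3* (76.8 RPM) and *Spin1* (579 RPM).

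Genes can be compared with each other only per kilobase of exon, and there too the order is limited by shared sequence. *mt-Cytb* had the highest value, with a mean of 28622 RPKM, followed by *mt-Nd1* at 28437 RPKM and *mt-Co1* at 22683 RPKM. These 3 means lie within 1 SD of *mt-Cytb* (12222 RPKM). Behind 6 mitochondrial genes stood *AY036118* (2141 RPKM, with 100% of its windows in other genes), *Omt2b* (1729 ± 965 RPKM, SD, n = 14), *Omt2a* (1520 ± 755 RPKM, SD, n = 14) and *Dppa3* (1296 ± 464 RPKM, SD, n = 14), whose protein, also called Stella, protects the maternal genome from demethylation. The spreads of the last 3 genes overlap. *Wtap*, which has 6248 bp of exon, ranked 20 on this scale with 544 RPKM.

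Reads were spread over many genes beyond these leaders. The leading 10 genes of an embryo held 13.7 ± 3.79% of mapped reads (SD, n = 14), the leading 100 held 23.4 ± 3.75% and the leading 1000 held 49.4 ± 3.51%. With the mitochondrial genes taken out of the total, the leading 10 held 3.18% and the leading 1000 held 42.4%. A total of 42 genes had a mean of at least 1000 RPM, of which 36 were nuclear. Between 314 genes (embryo j) and 782 genes (embryo f) were needed to hold 50% of the reads in genes, with a median of 462.5.

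Summed over gene lists, the translation machinery, splicing factors and oogenesins held similar shares of the reads. Translation initiation and elongation factors (35 genes) held a median of 0.830%, cytoplasmic ribosomal proteins (79 genes) 0.768%, splicing factors (46 genes) 0.724%, and the 6 oogenesin and Omt2 genes 0.716%. Much smaller shares went to the subcortical maternal complex, which cleavage depends on (8 genes, 0.186%), to the Obox homeobox genes (7 genes, 0.0892%) and to the two-cell transient genes (25 genes, 0.101%). The lists differed in how steady their share was. The share of the initiation and elongation factors had a coefficient of variation (CV, the SD over the mean) of 10.5% over the 14 embryos, that of heat shock proteins and chaperonins 14.9%, and that of the zona pellucida and oocyte-secreted factors 64.9%, which was 41.8% without embryo l.

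Detection was compared at equal depth, which here means equal mapped reads; reads in genes remained unequal. After thinning, 5068 of 35269 genes (14.4%) had at least 1 read in each of the 14 embryos, and 15013 genes had no read in any embryo before thinning. Without embryo k the count was 5876, and without embryos j and k 6496. With equal reads in nuclear genes it was 5076. Of the 1627 genes with a mean of at least 100 RPM, 32 were missing from embryo k alone and 2 from embryo j alone. Of 21924 protein-coding genes, 4908 (22.4%) were read in every embryo, against 145 of 9813 long non-coding RNA genes (1.48%). The call follows level closely. All 42 genes with a mean of at least 1000 RPM, 97.7% of the 1585 genes between 100 and 1000 RPM and 77.3% of the 3763 genes between 20 and 100 RPM were read in every embryo. Between 5 and 20 RPM the share was 15.8%, which includes genes that the depth of 637704 reads cannot detect reliably.

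Lists of basic cell functions differed in how complete they were. Cytoplasmic ribosomal proteins were read in every embryo for 76 of 79 genes. The exceptions were *Rpl12*, *Rpl23a* and *Rpl36*, each missing from 1 embryo after thinning, with means of 13.2 to 33.1 RPM. Nucleolar and rRNA processing factors gave 29 of 31, initiation and elongation factors 32 of 35, heat shock proteins and chaperonins 20 of 23, proteasome subunits 28 of 34 and splicing factors 36 of 46 (41 without embryo k). Among the initiation factors, which load the ribosome onto mRNA, *Eif4e* stood at 807 ± 142 RPM (SD, n = 14) and *Eif1* at 414 ± 77.7 RPM (SD, n = 14). For the enzymes of glycolysis, pyruvate and citrate metabolism the count was 12 of 39 (30.8%, near the 22.4% of all protein-coding genes, and 16 without embryo k). *Pdhb*, a subunit of pyruvate dehydrogenase, was the highest of these per kilobase, with 180.5 RPM. Nuclear-encoded respiratory chain subunits gave 47 of 76, and 54 without embryo k.

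Some genes of the egg were read in every embryo and others were sparse. Maternal mRNA decay factors were read in every embryo for 15 of 18 genes, with *Btg4*, the adaptor that brings the CCR4-NOT deadenylase to maternal mRNA, at 91.4 to 698 RPM. Oocyte chromatin factors gave 16 of 19. The subcortical maternal complex gave 5 of 8, and its level was carried by *Zbed3*, at 411 to 2377 RPM in 13 embryos and 76.8 RPM in embryo j. In contrast, *Ooep* and *Khdc3* of the same complex averaged 3.22 and 3.64 RPM and were read in 8 of 14 embryos at equal depth. *Zar1* (3.15 RPM) and the meiotic kinase gene *Mos* (1.05 RPM) were likewise near the detection limit. In the shallowest embryo 1 read is worth 1.57 RPM and 3 reads 4.70 RPM, so values of this size cannot be ranked.

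Of 25 two-cell transient genes, 7 were read in every embryo at equal depth (28.0%, near the 22.4% of all protein-coding genes), and 10 without embryo k. The 7 included *Sp110*, *Eif4e3*, *B020004J07Rik*, *Tdpoz1*, *Zfp352* and *Usp17lb*. The median of the list was 9.80 RPM, against 3.24 RPM over all genes with a read. *Zfp352* stood at 19.0 to 130 RPM, with a median of 57.8 RPM. *Zscan4d*, the two-cell member of the Zscan4 family, averaged 22.5 RPM and was read in 13 of 14 embryos. These families hold near-identical copies, and members such as *Zscan4c* (1.86 RPM) may lose reads to the mapping quality filter. Of 7 Obox genes, 4 were read in every embryo, led by *Obox6* at 449 ± 153 RPM (SD, n = 14). Early lineage factors gave 9 of 24. *Klf17* and *Yap1* averaged 301 and 501 RPM, whereas *Nanog*, *Eomes* and *Elf5* were each read in 1 embryo.

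**Figure D2:**
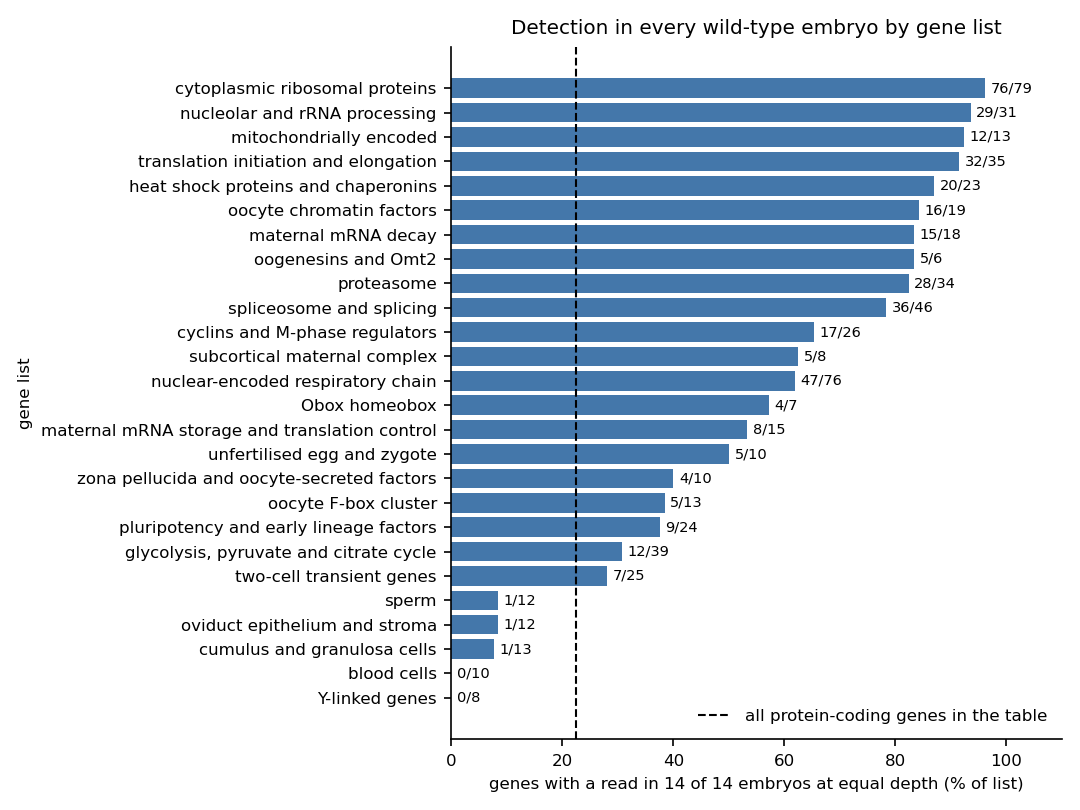
Percentage of the genes of each list that had a read in 14 of 14 embryos after thinning to 637704 mapped reads, with the number of genes at the end of each bar; the dashed line is the 22.4% of all protein-coding genes. Ribosomal protein genes reach 76 of 79, and the blood and Y-linked lists reach 0.

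The promoters of the detected genes were read from RefSeq (GRCm38.p6; 250 bases before to 50 bases after a start site), which matched 3947 of the 4908 protein-coding genes read in every embryo. Their median ratio of observed to expected CpG, which corrects CpG content for base composition, was 0.847, against 0.602 over the promoters of 16512 of 21924 protein-coding genes. Only 75.3% of these genes were matched, so the value describes the matched genes. The 29 matched genes of the oocyte lists (subcortical maternal complex, zona and secreted factors, F-box cluster, oogenesins and Omt2) had a median of 0.118. The motif TATAAA on either strand stood in 6.31% of the promoters of genes read in every embryo, in 10.3% of those of the oocyte lists and in 12.9% of all. *Spin1* and *Omt2b*, both among the leading nuclear genes, are shown as an example of each class, 5′ to 3′ on the strand of the gene, with CpG in capitals. The *Spin1* sequence (chr13:51100630-51100929, forward strand) holds 51 CpG and that of *Omt2b* (chr9:78327780-78328079, forward strand, with its start site 441 bp inside the gene as the expression table places it) holds 1. The class medians are 24 and 2 CpG, so *Spin1* is far above the median of its class. The classes overlap, since *Omt2b* was also read in every embryo.
Spin1: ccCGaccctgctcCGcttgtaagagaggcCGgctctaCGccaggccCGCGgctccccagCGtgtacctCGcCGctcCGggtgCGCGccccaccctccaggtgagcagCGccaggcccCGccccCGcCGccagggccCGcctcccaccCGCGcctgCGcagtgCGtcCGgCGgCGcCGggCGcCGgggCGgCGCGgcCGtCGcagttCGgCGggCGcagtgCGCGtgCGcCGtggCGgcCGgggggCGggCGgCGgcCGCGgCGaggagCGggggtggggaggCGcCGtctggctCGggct
Omt2b: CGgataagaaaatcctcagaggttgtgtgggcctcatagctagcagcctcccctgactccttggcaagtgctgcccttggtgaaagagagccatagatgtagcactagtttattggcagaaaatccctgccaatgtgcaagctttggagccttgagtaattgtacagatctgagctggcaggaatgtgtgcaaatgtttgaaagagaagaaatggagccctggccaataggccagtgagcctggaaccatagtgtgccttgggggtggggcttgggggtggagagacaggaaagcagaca

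Some abundant transcripts were nearly constant between embryos. Over the 1627 genes with a mean of at least 100 RPM, the median CV was 0.401, and 129 genes had a CV under 0.25. The lowest value was that of *Rock1*, with a CV of 0.099. It stood at 1525 ± 152 RPM (SD, n = 14), between 1290 and 1863 RPM, and embryos j (1626 RPM) and k (1504 RPM) lay inside this range. *Esco1* followed with 1501 ± 173 RPM (SD, n = 14). *Prc1*, which bundles microtubules in the dividing cell, stood at 400 ± 46.3 RPM (SD, n = 14), and *Fbxo11*, the receptor of a ubiquitin ligase, at 1016 ± 144 RPM (SD, n = 14). The next were *Sf3b1* (a U2 snRNP subunit), *Usp16* (a histone H2A deubiquitinase), *Hnrnpr*, *Cab39*, *Ubfd1* and *Hnrnpc*, with CVs from 0.156 to 0.166. *Sf3b1*, *Hnrnpr* and *Hnrnpc* act in mRNA splicing or packaging. Genes with a CV under 0.25 had a median exon length of 6167 bp, against 5476 bp for all genes of at least 100 RPM, and the median CV was 0.452 in the shortest 407 of these genes and 0.380 in the longest 407.

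Variation beyond counting noise was measured as the squared CV less its Poisson part, and was divided by its median over the genes of nearest level, so that a ratio of 1 is typical of the level. A ratio of 4 or more was reached by 185 of 5390 genes (3.43%), with *Gm12823* just inside (4.01) and *Pole3* just outside (3.99). Most of these calls belonged to embryo k. It had the highest level for 159 of the 185 genes (85.9%), against 18.4% of all 5390 genes. Of the 185 genes, 46 had a mean of at least 20 RPM only through embryo k and drop out of the comparison without it, and embryo k was highest for 113 of the other 139. Without embryo k, 67 of 5360 genes (1.25%) reached the ratio, of which 31 were among the 185. Without embryos j and k the count was 86, and with the spread measured within each litter it was 59.

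*Ovgp1*, *Selenop* and its overlapping partner *Ccdc152* had the highest ratios, and *Dcn* ranked 7. *Selenop*, *Ccdc152* and *Dcn* passed the filter of 20 RPM only through embryo k and have no ratio without it. With the spread measured within each litter, *Selenop* (2.42), *Dcn* (1.43) and *Arxes2* (2.46) fell below a ratio of 4, where a gene adds no spread in a litter in which it has no read. *Ccdc152*, with 9 reads in embryo c and none in the rest of mating 1, did add spread there, so this measure can turn on few reads. *Ovgp1* encodes oviductin, the glycoprotein that the oviduct secretes around the egg, lies at chr3:105973711-105987423 on the forward strand, and had the highest ratio (42.5, and 12.9 without embryo k). It stood at 1498 RPM in embryo k, at 211, 147 and 48.4 RPM in embryos l, m and n, and at 0 to 61.4 RPM in mating 1. *Selenop*, a secreted selenium carrier, had 887 RPM in embryo k, 145, 66.3 and 20.0 RPM in embryos l, m and n, and no read in any of the 10 embryos of mating 1. *Dcn*, the matrix proteoglycan decorin, had the same order, with 457, 79.0, 61.3 and 35.4 RPM, and no read in mating 1. For each of these 3 genes embryo k was highest, and for *Selenop* and *Dcn* the 2 matings did not overlap. *Ovgp1* shares 26.6% of its 50-base windows with *Gm42890*. *Ccdc152* overlaps *Selenop* on the opposite strand by 439 bp of exon, had the same reads in embryos l, m and n, and had 9 reads in embryo c, where *Selenop* had none. Reads from the shared stretch cannot be assigned to 1 of them in these unstranded data.

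Other genes of the leading 15 were far higher in embryo k than elsewhere. *Gm10800* stood at 1740.2 RPM there and at 33.0 to 167 RPM in the other embryos. *Maea*, a subunit of a ubiquitin ligase, stood at 840 RPM against 0 to 128 RPM. *Arxes2*, *Tns3*, *Frmd6*, *Rnf128*, *Iqschfp*, *Schip1*, *Marcks* and *Traf3* completed this set, with 259.9 to 420.3 RPM in embryo k and at most 87.8 RPM in any other embryo. These 8 genes had a mean of at least 20 RPM only through embryo k, so that its place was set by the filter. *Iqschfp* and *Schip1* overlap and have equal reads, and *Arxes2* and *Gm10800* share 40.1% and 27.4% of their windows with other genes. Of these 15, only *Gm26917*, annotated as a long non-coding RNA gene next to *Gm42418* on chromosome 17, had its highest level elsewhere (1021 RPM in embryo b and 345 RPM in embryo f, with a median of 39.8 RPM). At equal depth, embryo k also lacked 35 of 1543 genes with a median of at least 100 RPM in the other embryos (2.27%), against 0 to 2 genes in each of the others. *Gm6871*, *Hormad1* (a meiotic chromosome axis protein), *Zfp977* and *Slc5a3* were among the 35. *Cks2*, a partner of cyclin-dependent kinases, was at 52.5 RPM in embryo k and at 511 to 946 RPM in the other 13.

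**Figure D3:**
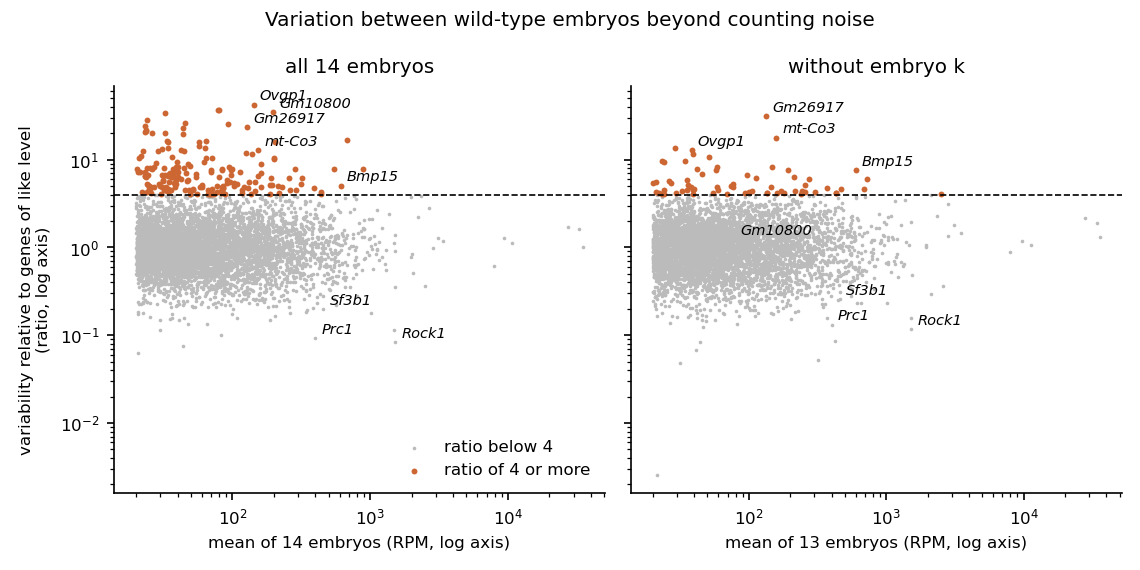
Variability of each gene relative to genes of like level (ratio) against its mean level in RPM, both on log axes, for all 14 embryos and without embryo k; orange points have a ratio of at least 4 (dashed line). The 185 orange genes with all embryos fall to 67 without embryo k, and *Rock1* and *Prc1* lie far below 1 in both panels.

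Without embryo k, the order of the variable genes differed, but all 15 leading genes already had a ratio of at least 4 with all 14 embryos, and *Tmsb4x* and *Ovgp1* ranked 3 and 4 (32 and 1 with all embryos). The further genes named here were chosen after these values had been seen. Embryo l was highest for 20, embryo j for 14 and embryo e for 10 of the 67 genes. With all embryos, they were highest for 9.26, 9.11 and 7.53% of all 5390 genes. *Bmp15*, an oocyte-secreted growth factor, had 1813 RPM in embryo l and 83.1 to 1111 RPM in the other embryos. *Oosp1* had 780 RPM against 53.7 to 262 RPM, and *Rspo2*, an activator of Wnt signalling, had 742 RPM against 69.2 to 259 RPM. Not every oocyte gene was high there, with *Oog3* at 1649 RPM in embryo l (mean 2025 RPM) and *Padi6* at 41.5 RPM (mean 42.8 RPM). Zinc finger genes were a second set. Of 124 genes named Zfp with a number, 10 reached the ratio (8.06%, against 1.25% of all genes), and with all 14 embryos 7 of 121 did (5.79%, against 3.43%). Their median ratio was 1.29 in both cases, where that of all genes is 1. *Zfp708* had 160.0 RPM in embryo m and 1.03 to 35.8 RPM elsewhere. *Zfp345* had 184 RPM in embryo j, 109 RPM in embryo h and 62.7 RPM in embryo d, and none in 4 embryos. *Zfp934* was highest in embryos d, i and h (195, 116 and 111 RPM) and had no read in embryo k. Shared sequence limits these values, since 94.9% of the windows of *Zfp708* and 29.9% of those of *Zfp345* stand in other genes. *mt-Co3*, with 917 RPM in embryo n and a median of 74.7 RPM, carries the same limit.

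Sex-linked genes separated the embryos. Reads of the 8 Y-linked genes summed to 117 to 175 RPM in embryos a, d, e, h, l and m, and to 0 or 1 read in the other 8. *Usp9y*, a deubiquitinase gene of the Y chromosome, contributed most, with a mean of 25.3 RPM over all embryos and up to 104 RPM. *Xist*, the RNA that silences an X chromosome, was named after its values had been seen. It had more than 3 reads in 6 of the 8 embryos with at most 1 Y-linked read, from 5.90 RPM in embryo n to 108 RPM in embryo j. Embryos f and k had at most 1 read of either kind, and in the 6 embryos with Y-linked reads *Xist* had at most 3 reads.

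**Figure D4:**
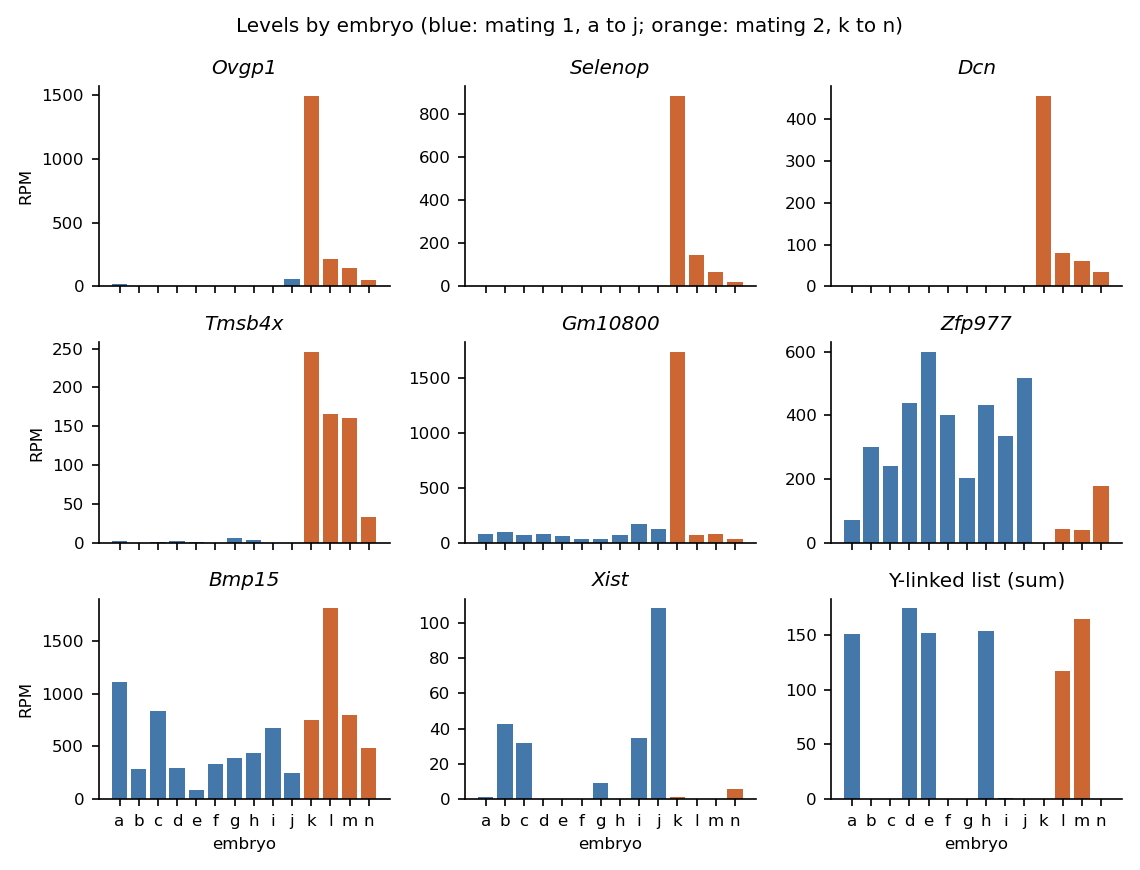
Level in RPM of 8 genes and the sum of the Y-linked list in each embryo (blue, mating 1, a to j; orange, mating 2, k to n). *Ovgp1*, *Selenop* and *Dcn* are highest in embryo k, *Zfp977* has no read there, *Bmp15* peaks in embryo l at 1813 RPM, and Y-linked reads stand in 6 embryos.

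The litters were compared as the only grouping inside the genotype. In limma, 81 of 12597 genes (0.643%) differed between the matings at a Benjamini-Hochberg adjusted p under 0.05, of which 65 were higher (0.516%) and 16 lower (0.127%) in mating 2. The 5 largest differences were those of *Selenop*, *Ccdc152*, *Dcn*, *Tmsb4x* and *Ovgp1*. *Selenop* was 6.86 ± 0.76 and *Dcn* 6.58 ± 0.69 higher in mating 2 on the log2(RPM + 1) scale (SE, limma, adjusted p = 7.13e-06 and 3.86e-06). As ratios of mean RPM they were at least 1654-fold and 936-fold higher, with the limit of 3 reads over all of mating 1 taken as the lower level. These ratios were not tested, and embryo k carried much of the mating 2 means. Without it the bounds were 456-fold and 347-fold, and the log2 differences 5.89 and 5.82 (limma, adjusted p = 1.01e-05 and 6.33e-06). *Tmsb4x*, an actin-binding peptide, stood at 246, 166, 160.0 and 33.0 RPM in mating 2 and at 0 to 6.34 RPM in mating 1. Its level was 5.97 ± 0.78 higher on the log2(RPM + 1) scale (SE, limma, adjusted p = 5.89e-05). *Ovgp1* was 5.93 ± 0.97 higher on the same scale (SE, limma, adjusted p = 0.0014) and 5.01 higher without embryo k, although embryo j of mating 1 exceeded embryo n. *Lum*, *Col1a2*, *Sparcl1* and *Mgp*, all of the extracellular matrix and named after their values had been seen, had no read in mating 1 and 3.54 to 84.4 RPM in mating 2. In all, 11 of the 65 genes had no read in mating 1. The test required at least 3 reads in at least 4 embryos, and mating 2 has 4 embryos. A gene with no read in mating 1 thus entered only if all of mating 2 had such reads. The filter therefore set the direction and separation of these 11 genes. The 2 matings did not overlap for 37 of the 65, against 142 of all 12597 tested genes (1.13%). Embryo k was highest for 52 of the 65, against 18.4% of the 5390 genes of at least 20 RPM. *Ugt1a* genes made up 9 of the 65 with identical values, since they share exons, and count as 1 locus.

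Among the 16 lower genes, *Zfp977* fell most, with 0, 44.2, 38.9 and 179 RPM in mating 2 and a median of 368 RPM in mating 1 (-3.70 ± 0.75 on the log2 scale, SE, limma, adjusted p = 0.0125). Without embryo k the difference was -2.18 (limma, adjusted p = 0.0352). *Susd6*, *Eif5a2*, *Snhg14* and *Ttc30b* followed with differences of -3.13 to -3.03, and none of these 4 was called without embryo k (limma, differences of -2.67 to -2.19, adjusted p of 0.188 to 0.232). They were called in 4, 4, 8 and 7 of 24 alternatives, and *Zfp977* in 21. Among the lists, a higher gene stood in oviduct epithelium and stroma (2 of 3 tested), mitochondrial genes (1 of 13), nuclear-encoded respiratory chain (1 of 76) and early lineage factors (1 of 18), and no list held a lower one; over all genes 0.516% were higher. In the order of these lists the genes were *Ovgp1* and *Dcn*, *mt-Co2*, *Atp5g3* (an ATP synthase subunit) and *Sox17* (an endoderm factor), and *Sox17* stood at 56.3 RPM in embryo k and at 4.35 to 12.8 RPM in embryos l to n. The median difference over all tested genes was -0.10 on the log2 scale. The split by direction rested on single embryos. It was 37 higher and 2 lower without embryo k, 49 and 3 without embryo e, and 156 and 89 without embryo n, and the lower count was also 2 without embryo d or i, and *Selenop*, *Ccdc152*, *Dcn*, *Tmsb4x* and *Ovgp1* were called in all 24 alternatives. Reads of the oviduct list took 0.214% of embryo k (Wilson interval 0.205 to 0.223%), 0.0421% of embryo l (0.0399 to 0.0445%) and 0.0176% or more of each embryo of mating 2. The range in mating 1 was 0.00661 to 0.0162%. How much of the litter difference goes with RNA of these cell types was not tested.

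No single gene was called as changing with depth. With litter in the model, no gene of 12597 (0%) changed with log2 mapped reads at an adjusted p under 0.05 in limma, and 629 had an unadjusted p under 0.05. The count was also 0 in each of 7 alternative fits, with 419 to 1019 genes at an unadjusted p under 0.05 (1019 without embryos j and k). The number of detected genes rose with depth, with a Pearson r of 0.67 and a Spearman rho of 0.70 over 14 embryos (permutation, two-sided, adjusted p = 0.025 and 0.018 over 5 relations). It remained without the deepest 2 embryos, a and e, at r = 0.76 (permutation, adjusted p = 0.023). Within mating 1 the value was r = 0.59 (permutation, adjusted p = 0.18, n = 10), and after thinning it was r = 0.39 (permutation, adjusted p = 0.43). The mitochondrial share had no detectable relation to depth (r = -0.0036, rho = -0.055, permutation, adjusted p = 0.99 and 0.85). Nor had the maternal lists (r = 0.31, rho = 0.36, permutation, adjusted p = 0.48 and 0.34) or the two-cell transient list (r = 0.24, rho = 0.23, permutation, adjusted p = 0.51 and 0.53). Without embryos a and e these 3 values of r were -0.47, 0.52 and 0.49 (permutation, adjusted p = 0.12 for each).

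Embryos with a higher mean level of the maternal lists also had a higher mean level of the two-cell transient genes. Over all 14, the mean log2(RPM + 1) of the maternal genes and that of the two-cell transient genes had an r of 0.65 and a rho of 0.73 (permutation, adjusted p = 0.025 and 0.018). Within mating 1 the value was r = 0.75 (permutation, adjusted p = 0.043, n = 10). The two-cell transient values fell on both sides of a gap, with embryos b, e, j and k at 2.09 to 2.79 and the other 10 at 3.55 to 4.30. Within these 10 embryos r was 0.34 and rho 0.35 (unadjusted permutation p = 0.34 and 0.33), but they were chosen on this scale after it had been seen, and the narrower range lowers r by construction. Without embryos j and l, which lie farthest from the median of the maternal lists, r was 0.56 (permutation, adjusted p = 0.12). Without embryo k, r was 0.75 and rho 0.70 (permutation, adjusted p = 0.011 and 0.024). Without embryos j and k, r was 0.68 and rho 0.62 (permutation, adjusted p = 0.043 and 0.085), and at equal depth r was 0.68 and rho 0.64 (permutation, adjusted p = 0.034 and 0.076). Embryo j had the lowest maternal value (3.53) and embryo l the highest (5.82). Of the embryos below the gap, e and b had the highest mitochondrial shares of all (20.2 and 18.9%). Embryos j and k had the fewest genes with a read (9403 and 9169). Embryo i, with the next highest mitochondrial share (16.8%), lay above the gap. Whether the relation is particular to these 2 lists was not tested.

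**Figure D5:**
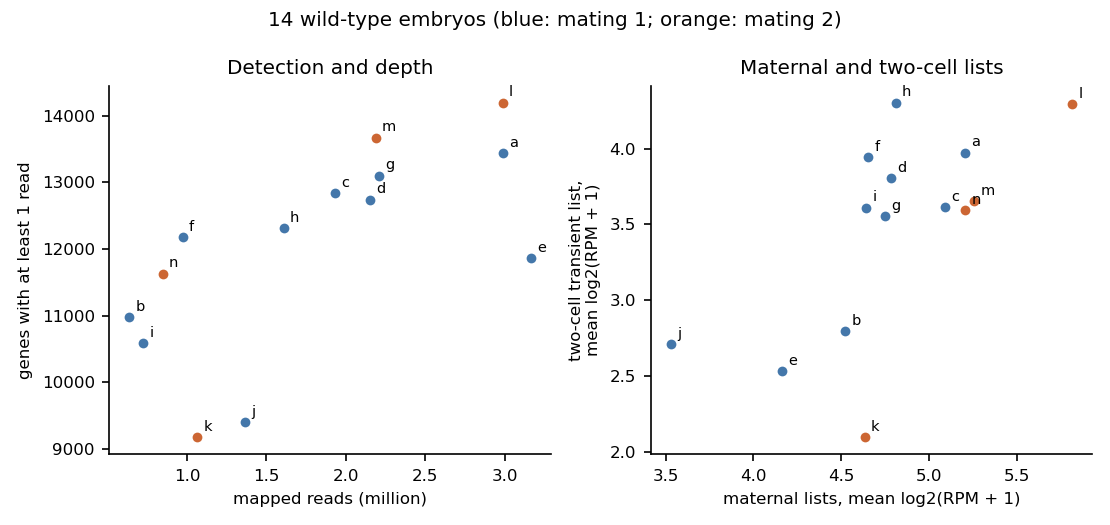
Genes with at least 1 read against mapped reads, and the mean log2(RPM + 1) of the two-cell transient list against that of the maternal lists, with 1 lettered point per embryo (blue, mating 1; orange, mating 2). Embryos j and k have few genes for their depth, and embryos b, e, j and k lie below the gap between 2.79 and 3.55 on the two-cell transient scale.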

How the data were processed

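Single two-cell embryos were sequenced after Smart-seq2 amplification (75 bp paired-end reads). The authors trimmed with Trim Galore 0.6.5 and cutadapt 2.3, aligned to GRCm38 with HISAT2 2.1.0 (mapping quality 20 or higher) and counted over genes in SeqMonk, ignoring strand, and the deposited values are log2 RPM. Each embryo's lowest value is that of 0.9 read and marks genes with none, so reads were recovered from it (99.9996% of wild-type values whole within 0.05 read), and genes without reads were set to 0. Total mapped reads per embryo (637704 to 3163026) follow from the same step. No columns held identical values. Exon lengths and coordinates come from GENCODE M21, which matched 35253 of 35269 genes, 98.1% of them with the same start and end.

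Litters and depth were tested with limma 3.58.1 (R 4.3.3; lmFit and eBayes with trend) on log2(RPM + 1) for genes with at least 3 reads in at least 4 of 14 embryos, and relations with 100000 permutations. P-values measure the spread between embryos of 2 litters. Dominance, detection and variation are descriptions without a test. The scripts were tested on simulated data. Groups and litters came from the labels. The wild-type group, gene lists and tests were chosen with earlier results of these data known.

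Genes named were the 15 with the highest share of reads, the 10 with the highest RPKM, the 15 most variable and the 10 least variable (mean of at least 100 RPM), the 5 highest and 5 lowest in mating 2, up to 3 per list, *Dppa2*, *Dppa4* and the Y-linked genes. The alternatives covered the pseudocount, filters, scaling, thinning, voom, the samples in the fit and leaving out embryos. Leaving out embryos j and k together, embryo k from the fit on depth and the relations, or each embryo from the counts of detected and leading genes, the list shares and the litter bounds, thinning to equal reads in nuclear genes, and keeping the 10 embryos above the gap, were chosen after seeing the data. The other 30 embryos entered the fit with all 44 embryos alone. Figures were drawn with matplotlib 3.10.9.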

Additional observations from a re-analysis of the deposited data

Results flagged for a closer look

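A gap test (Dixon's) was run within each litter on 62 sets of values, and chance flags about 1 in 20 sets. It marked 5 values in 3 embryos. Embryo j had 8548 genes with a read at equal mapped reads, against 10360 to 11654 in the other embryos of mating 1, and it also had the lowest share of reads in genes (71.2%). In embryo k the mean correlation with the other embryos was 0.448, against 0.697 to 0.736 in the rest of mating 2. The oviduct list held 0.214% of the reads of embryo k, against 0.0176 to 0.0421% in embryos l to n. Embryo j held 0.0162% for the same list, against 0.00661 to 0.0111% in the rest of mating 1, which is 222 reads (Wilson interval 0.0142 to 0.0185%). Zona pellucida and oocyte-secreted factors took 0.353% of the reads of embryo l (interval 0.346 to 0.359%), against 0.114 to 0.148% in the other 3 embryos of mating 2. Their causes were not tested.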

How the results depend on the processing

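Only 2 litters were measured, with 10 and 4 embryos, and a share of reads cannot separate fewer molecules of a gene from more of the others. No paired analysis was possible because each embryo belongs to only 1 mating. The genes differing between matings numbered 81, and 9 with a mean of at least 20 RPM (fewer genes tested), 36 at equal depth, 131 with voom, 272 with all 44 embryos in the fit, 28 without embryos j and k, and 39 to 245 with 1 embryo left out. Genes with a ratio of 4 or more numbered 185, and 59 within litters, 93 at a mean of at least 50 RPM (fewer genes), 327 with embryos scaled by their median ratio, 86 without embryos j and k, and 67 to 222 with 1 embryo left out. The leading 10, 100 and 1000 genes held 3.18, 13.1 and 42.4% without the mitochondrial genes. Genes detected in every embryo stayed within 1.5 times of 5068 in every alternative, and no alternative called a gene for depth. The relation of detected genes to depth lost its call within mating 1 (r = 0.59), at equal depth (r = 0.39) and, for rho alone, without embryos j and k (rho = 0.70, adjusted p = 0.069, permutation), and that of the maternal to the two-cell transient lists without the 2 farthest embryos (r = 0.56) and within 10 embryos (r = 0.34, a range narrowed by their choice), and for rho alone at equal depth and without embryos j and k. Where no reason is given, the cause was not tested. None of the 10 genes named for the largest litter differences changed direction in 24 alternatives each, and 164 of these 240 values kept their call.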
